A study of Mus musculus with 6 samples.

Results

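A set of 18 genes was close to silent in wild-type (WT) marrow cells and gave reads in every NHD13 library. They were chosen by their raw counts from the 17523 rows of the deposited table, with 3 limits: a summed count of at most 10 over the 3 WT libraries, a summed count of at least 40 over the 3 NHD13 libraries, and at least 5 counts in each NHD13 library. Of the 37 rows that met these limits, 19 were left out by name, among them the Hox genes and the fusion transcript itself, and 18 were kept. The 18 are Mab21l2, Tmem47, Gjb2, Ano4, Mgat4c, Susd5, Pcdh17, 4921525O09Rik, 2700086A05Rik, Pgm5, Chl1, Gm5416, 2010005H15Rik, Unc13c, Nespas, Strc, Cd163l1 and Pkp2. Because the limits are set on the same counts that are compared, the difference between the groups in these genes is a description and carries no test.

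Marrow cells of C57BL/6 mice were isolated by FACS and their RNA was sequenced; the series calls them hematopoietic stem cells (HSCs). The WT group has 3 libraries of wild-type animals, and the NHD13 group has 3 libraries of mice that carry NUP98-HOXD13, a fusion of a nucleoporin gene and a homeobox gene. No treatment is named, and the promoter of the fusion gene, the age of the mice, the surface markers of the sort and whether a library is 1 animal or a pool were not given in the sources used here. The labels number the libraries but do not say that they came from separate animals, so p-values measure the spread between these libraries, which may be technical.

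Total counts ran from 12541538 to 14388772 per library, and a floor of 3 counts corresponds to 0.207 to 0.237 CPM (the gene's count scaled by library size). The row for the fusion transcript had 0 counts in each WT library and 185, 179 and 167 counts in NHD13 replicates 1, 2 and 3. NHD13 replicate 1 stands apart from its group: the chi-square of its counts per degree of freedom was 25.6 and 25.3 against NHD13 replicates 2 and 3, compared with 3.23 between those libraries and 18.5 against WT replicate 1. Xist, which is transcribed from the inactive X chromosome of females, had 34, 28 and 9885 counts in NHD13 replicates 1 to 3 and 5852, 13700 and 15472 counts in WT replicates 1 to 3. Y-linked genes held 0.0248, 0.0280 and 0.0177% of counts in NHD13 replicates 1 to 3 and 0.0194, 0.0109 and 0.0113% in WT replicates 1 to 3. Each library with much Xist thus also held Y-linked reads, and so RNA of male and female animals. The mix of sexes differs within and between groups. Of 18 HSC marker genes 14 were tested. Of these, 2 were called higher in NHD13 (Mecom and Mllt3) and 7 lower, beside 15.0% and 15.3% of all tested genes. The stem and progenitor gene Kit averaged 254 CPM in WT against 226 in NHD13 (adjusted p = 0.0884, edgeR), Mecom 1.01 and 6.76 CPM, and Procr, near the floor, 0.350 and 0.167 CPM. The summed level of 12 neutrophil marker genes was 48770 to 62917 CPM in WT and 36633 to 39425 CPM in NHD13, so the libraries also held much granulocyte RNA.

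NUP98-HOXD13 is found in human myelodysplastic syndrome and acute leukaemia, and mice that carry it develop a myelodysplastic syndrome that can turn into leukaemia. The fusion protein keeps the DNA-binding homeodomain of HOXD13 and is best known for keeping Hox genes active in marrow cells that would otherwise shut them off. The 18 genes have no shared role: among them are genes known from the developing eye, the nervous system, the inner ear and cell junctions, stefins and non-coding RNAs.

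In WT, 1 of the 18 genes had no count, 5 had 1 count, 5 had 2 to 4 and 7 had 5 to 10 over the 3 libraries together. Over all 18 genes, WT replicates 1, 2 and 3 held 25, 23 and 30 counts, and NHD13 replicates 1, 2 and 3 held 723, 872 and 894. Every NHD13 library exceeded every WT library for 18 of 18 genes, compared with 23.5% of the 12013 genes that passed the low-count filter. In edgeR's quasi-likelihood test 13 of the 18 passed that filter and all 13 were called higher in NHD13, against a background of 30.3% of tested genes called in either direction and 15.0% called higher. Both counts follow from the limits that chose the genes, and nothing is read from them. The 5 genes that did not pass the filter, Gm5416, Unc13c, Strc, Cd163l1 and Pkp2, are described here with the others. In bulk libraries, more cells that express a gene and more RNA of it per cell cannot be told apart.

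**Figure D1:**
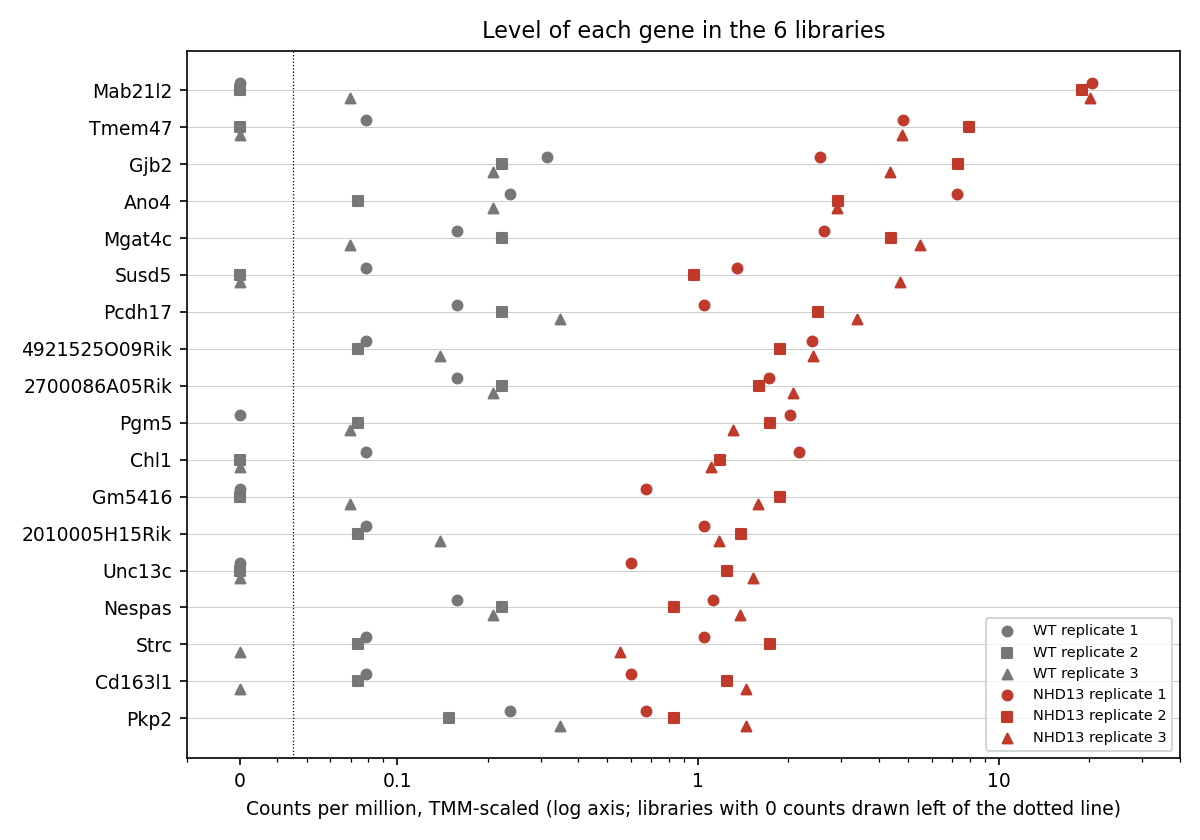
TMM-scaled CPM (log axis) of each of the 18 genes in every library, WT in grey and NHD13 in red, with a shape for each replicate and libraries at 0 counts drawn left of the dotted line. Each gene's red points lie right of its grey points, and Mab21l2, with a mean of 19.9 CPM in NHD13, lies farthest right.

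Such genes were rare in the table. Of the 4339 rows with at most 10 counts in WT, 4076 also had at most 10 counts in NHD13, 225 lay between the limits and 38 (0.876%) reached 40. The only one of these 38 that missed the limit per library was Osbpl10, with 4, 16 and 24 counts in NHD13. The mirror limits, at most 10 counts in NHD13 and at least 40 in WT with 5 in each WT library, were met by 61 rows before any name was left out, so more rows met the limits in the falling direction than the 37 in the rising one.

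The most abundant of the 18 was Mab21l2, a member of the Mab21 family that is needed for the embryonic eye and body wall. It had 0, 0 and 1 counts in WT replicates 1, 2 and 3 and 273, 273 and 292 counts in NHD13 replicates 1, 2 and 3, or 19.9 ± 0.788 CPM (SD, n = 3). All 3 NHD13 libraries were high and nearly equal, and NHD13 replicate 1, which stands apart over all genes, did not stand apart here. The coefficient of variation (CV, the SD over the mean) between the NHD13 libraries was 3.97%, against 5.98% that counting alone would give. The ratio of the scaled counts was 803 with a 95% counting interval (Clopper-Pearson) of 144 to 31763, whose width comes from the single WT count. Such intervals and floors reflect counting error alone, as they rest on counts summed over a group and leave out the spread between its libraries. Molecular identifiers were not used, so the counting error itself may be larger. Mab21l2 alone held 33.7% of the NHD13 counts of the 18 genes. Per kilobase of exon it reached 6.52 CPM, higher than 59.2% of the 15809 genes with an NHD13 count, and was the highest of the 18. Of its listed relatives, Mab21l1, Mab21l3 and Mb21d2 each had 1 count in WT and 0 in NHD13. Only 0.876% of all rows within the WT limit reached the summed NHD13 limit, so nothing is read from these counts. The other listed relative, Mb21d1, was expressed in both groups, with means of 61.7 CPM in WT and 52.4 CPM in NHD13 (adjusted p = 0.188, edgeR).

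Mab21l2 (chr3:86545581-86548629, minus strand, mm10) lies inside Lrba, a gene of vesicle trafficking on the opposite strand, and the gene models share 1097 exon bases. Lrba had 550, 544 and 616 counts in WT and 862, 1001 and 1085 counts in NHD13. It rose from 42.3 ± 1.58 to 69.7 ± 5.16 CPM (SD, n = 3), a log2 change of 0.72 with a standard error of 0.08 and an adjusted p of 0.000752 by edgeR, and it stayed past the threshold in every alternative. Lrba was thus well expressed in the WT libraries, in which Mab21l2 had a single count. Whether reads were counted by strand is not given in the sources used here, and reads of the shared exon bases can therefore not be assigned to either gene.

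Several of the genes encode proteins of cell junctions and adhesion. Tmem47, a membrane protein of cell junctions related to the claudin and PMP22 proteins, had 1, 0 and 0 counts in WT and 64, 115 and 69 in NHD13, or 5.85 ± 1.85 CPM (SD, n = 3). NHD13 replicate 2 was highest and the groups lay far apart, with a ratio of 238 (42.3 to 9426). Tmem47 is X-linked, and its count was 64 and 115 in the NHD13 libraries with little Xist and 69 in the library with much Xist, and all 3 WT libraries had much Xist. The part of sex in its values was not tested. Gjb2, which encodes the gap junction protein connexin 26, had 4, 3 and 3 counts in WT and 34, 105 and 63 in NHD13. It was lowest in NHD13 replicate 1, at a ratio of 0.438 to the mean of replicates 2 and 3, and its ratio of NHD13 to WT was 19.4 (10.3 to 41.0). Pkp2 encodes plakophilin 2, a desmosome protein best known from the heart. Its counts were 3, 2 and 5 in WT and 9, 12 and 21 in NHD13. With a ratio of 4.03 (1.99 to 9.0) Pkp2 had the smallest difference of the 18, and its lowest NHD13 library was less than 2-fold above its highest WT library in raw counts.

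Pgm5, a phosphoglucomutase-like protein found at muscle adhesion sites, had 0, 1 and 1 counts in WT and 27, 25 and 19 in NHD13. It was among the few genes that were highest in NHD13 replicate 1, and the ratio between groups was 34.0 (9.08 to 286). Chl1, a neural cell adhesion molecule of the L1 family with immunoglobulin domains, had 1, 0 and 0 counts in WT and 29, 17 and 16 in NHD13, or 1.49 ± 0.596 CPM (SD, n = 3). NHD13 replicate 1 was 1.90 times the mean of the other two, and the ratio of NHD13 to WT was 59.4 (10.3 to 2385). Its transcript is long, so that per kilobase Chl1 reached only 0.121 CPM, compared with 6.52 CPM per kilobase for Mab21l2. Pcdh17, a protocadherin of the nervous system, had 2, 3 and 5 counts in WT and 14, 36 and 49 in NHD13. Here NHD13 replicate 1 was low, at 0.357 of the mean of replicates 2 and 3, the smallest such ratio among the 18 genes.

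The remaining surface proteins were Susd5 and Cd163l1. Susd5, a predicted membrane protein with a sushi domain, had 1, 0 and 0 counts in WT and 18, 14 and 68 in NHD13. NHD13 replicate 3 held most of its reads, and the CV of 87.6% and the 4.83-fold gap between the highest and lowest library were the largest of the set. Cd163l1, a receptor of the scavenger receptor cysteine-rich family, had 1, 1 and 0 counts in WT and 8, 18 and 21 in NHD13, with NHD13 replicate 1 lowest.

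Proteins of membranes, secretion and sensory cells made up a further group. Ano4, of the anoctamin family of membrane channels and lipid scramblases, had 3, 1 and 3 counts in WT and 97, 42 and 42 in NHD13. NHD13 replicate 1 was 2.50 times the mean of replicates 2 and 3, the largest such ratio of the 18 genes. Mgat4c, a Golgi enzyme of the family that branches N-glycans, had 2, 3 and 1 counts in WT and 35, 63 and 79 in NHD13, and went the other way, at 0.533 in NHD13 replicate 1. Unc13c, which primes synaptic vesicles for release in neurons of the cerebellum, had no count in any WT library and 8, 18 and 22 counts in NHD13. Against the floor of 3 counts, here taken over the WT group, it was at least 15.3-fold higher in NHD13. The exact 95% counting interval of the ratio, which also covers the error of the NHD13 count, begins at 12. Strc, which encodes stereocilin of the inner ear hair bundle, had 1, 1 and 0 counts in WT and 14, 25 and 8 in NHD13, lowest in NHD13 replicate 3.

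Gm5416 and 2010005H15Rik, now named Csta3 and Csta2, belong to the stefin A genes, which encode inhibitors of cysteine proteases and lie in a cluster on chromosome 16. Gm5416 (chr16:36210403-36217788) had 0, 0 and 1 counts in WT and 9, 27 and 23 in NHD13. 2010005H15Rik (chr16:36221468-36257444) begins 3.68 kb further on and had 1, 1 and 2 counts in WT and 14, 20 and 17 in NHD13. The reads of the cluster lay mostly in other stefins, which the limits or their names kept out. Stfa1 had 1505, 4323 and 4212 counts in NHD13 and BC100530 had 1076, 2929 and 2860. In these abundant stefins NHD13 replicate 1 was also lowest, as it was in Gm5416 (0.389 of the mean of the other libraries) and in 2010005H15Rik (0.818). The copies are alike in sequence: 399 of the 639 bases of the 2010005H15Rik transcript (62.4%) match Gm5483 at 95% identity or more, and Gm5483 had 437, 1304 and 1355 counts in NHD13. The count of 2010005H15Rik is therefore uncertain, while the other 17 genes had no such match of 100 bases or more.

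Of the 18 genes, 3 are not protein-coding. 4921525O09Rik, a long non-coding RNA on chromosome 13, had 1, 1 and 2 counts in WT and 32, 27 and 35 in NHD13. The NHD13 libraries were close to each other, at 2.23 ± 0.307 CPM (SD, n = 3). 2700086A05Rik, now named Hoxaas3, is transcribed antisense to the HoxA cluster (chr6:52175217-52215076, plus strand). It had 2, 3 and 3 counts in WT and 23, 23 and 30 in NHD13. It shares 586 exon bases with Hoxa7 and 297 with Hoxa3 on the other strand, so part of its count cannot be told apart from theirs without a strand setting. Hoxa7 had 45, 57 and 45 counts in WT and 286, 296 and 279 in NHD13, and Hoxa3 had 7, 14 and 8 in WT and 102, 108 and 104 in NHD13. Nespas, an imprinted antisense transcript of the Gnas locus, had 2, 3 and 3 counts in WT and 15, 12 and 20 in NHD13. It overlaps 988 exon bases of Gnas, the gene of a stimulatory G protein subunit, which averaged 495 CPM in WT against 518 in NHD13 with a log2 change of 0.07 and an adjusted p of 0.409 by edgeR.

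NHD13 replicate 1 did not move in 1 direction in the 18 genes. It was above both other NHD13 libraries in 4 genes, below both in 8 and between them in 6, and the median ratio of replicate 1 to the mean of replicates 2 and 3 was 0.785. The median CV between NHD13 libraries was 40.3%. For 8 genes the CV was more than 2 times what counting alone gives, and for 5 it was below it. The 17 genes other than Mab21l2 lay between 0.986 and 5.85 CPM in NHD13, with a median CV of 40.4% and a median ratio of 0.752. In the 1856 other rows of the table in that range, the median CV was 21.0% and the median ratio was 0.991. Between the highest and lowest NHD13 library the 18 genes differed by 1.08 to 4.83-fold, and 10 of them by at least 2-fold. Mab21l2, 4921525O09Rik, 2700086A05Rik and 2010005H15Rik were even across the NHD13 libraries, while Susd5, Ano4, Gjb2 and Pcdh17 were not. Without NHD13 replicate 1, and with limits taken per library, all 18 genes still met the limits and Cd59b, Osbpl10 and Tgfa joined them.

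**Figure D2:**
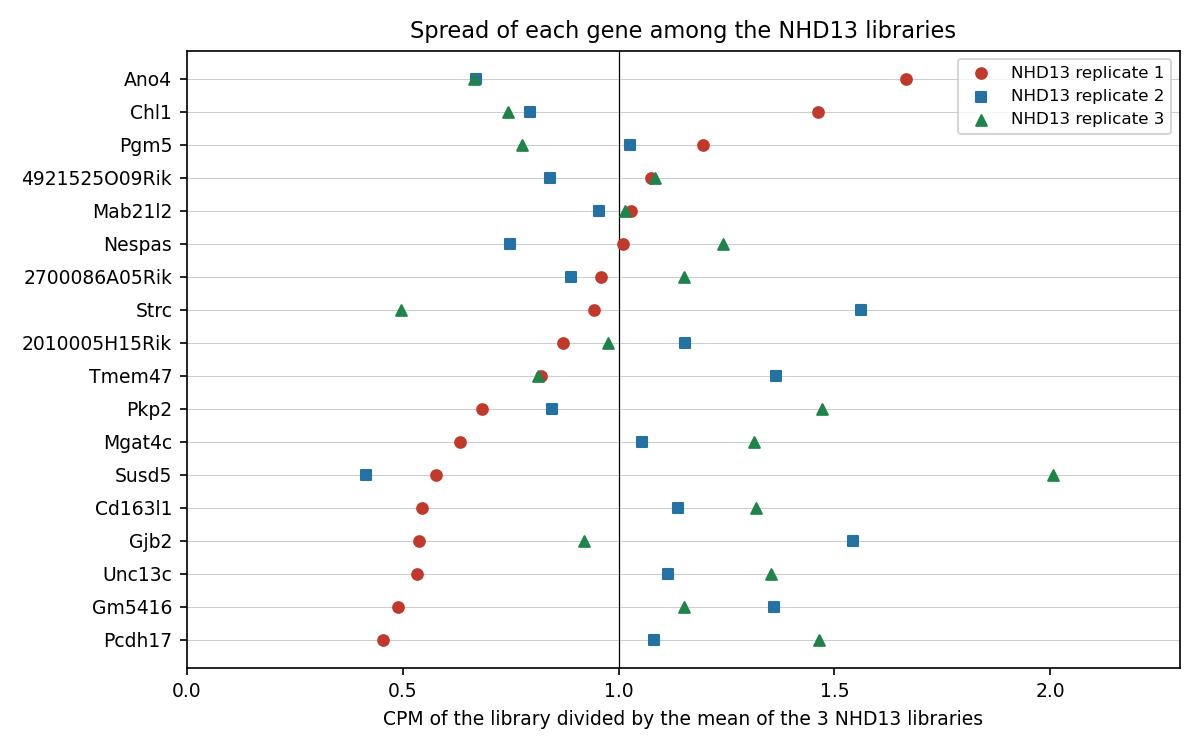
CPM of each of the 18 genes in each NHD13 library (1 point per library) divided by the mean of the 3 libraries, with genes ordered by replicate 1. Replicate 1 lies above the others for Ano4 and Chl1 and below them for Pcdh17 and Gjb2, while the 3 points of Mab21l2 lie close together.

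Most of the 18 genes had few reads even in NHD13. The median level of the 18 genes was 1.74 CPM in NHD13 and 0.0743 CPM in WT, and 12 of the 18 had fewer than 100 counts over the NHD13 libraries. Per kilobase of exon the median was 0.521 CPM, compared with 3.83 CPM for all genes with an NHD13 count, and single genes lay between percentiles 20.9 and 59.2. Together they made up 0.00589% of the NHD13 counts.

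The members nearest inside the limits were Gjb2, Pcdh17 and Pkp2, each with 10 counts in WT, and Pkp2, Cd163l1 and Nespas, with 42, 47 and 47 counts in NHD13. In a single NHD13 library the lowest counts were 8, in Cd163l1, Strc and Unc13c. Just outside the WT limit lay Klhl4, with 12 counts in WT and 497 in NHD13, Tgm3, with 12 and 41, and Rab40b, with 13 and 77. Just outside the NHD13 limit lay Cd59b, with 9 and 39 counts, Btn1a1, with 6 and 34, and Fat1, with 2 and 34. Klhl4, a kelch-repeat protein, thus had more reads in NHD13 than any of the 18 genes but Mab21l2 and was kept out by 2 counts in WT.

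Promoter sequences, 250 bases before to 50 after the start, were found in RefSeq (GRCm38.p6) for 14 of the 18 genes. In CpG content no promoter lay between 0.320 and 0.613 of the expected number. An observed over expected CpG ratio of 0.6 or more was found in 7 of the 14: Tmem47 (0.835), Pcdh17 (0.822), Mab21l2 (0.761), Gjb2 (0.760), Pgm5 (0.649), Chl1 (0.628) and Susd5 (0.613). The other 7, among them Ano4, Mgat4c, Unc13c and both stefins, lay between 0.104 and 0.320. A ratio of 0.6 or more was found in 61.2% of the 13513 rows with a promoter sequence, in 72.3% of tested genes and in 31.1% of the 2871 rows with at most 10 counts in both groups. The 50% of the 14 genes lies between these shares. These promoters are shown because they span that range, with each CG in capitals, 5′ to 3′ on the strand of the gene: Mab21l2 (chr3:86548234-86548533, minus), Tmem47 (chrX:81070394-81070693, plus), Chl1 (chr6:103510626-103510925, plus), Mgat4c (chr10:101681237-101681536, plus) and Cd163l1 (chr7:140218017-140218316, plus).
Mab21l2: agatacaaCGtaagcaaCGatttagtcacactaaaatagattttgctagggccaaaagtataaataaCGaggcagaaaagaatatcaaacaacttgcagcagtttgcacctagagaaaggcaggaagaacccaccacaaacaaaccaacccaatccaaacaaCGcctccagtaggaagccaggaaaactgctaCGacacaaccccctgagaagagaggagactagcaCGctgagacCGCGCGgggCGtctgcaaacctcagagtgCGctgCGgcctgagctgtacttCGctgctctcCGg
Tmem47: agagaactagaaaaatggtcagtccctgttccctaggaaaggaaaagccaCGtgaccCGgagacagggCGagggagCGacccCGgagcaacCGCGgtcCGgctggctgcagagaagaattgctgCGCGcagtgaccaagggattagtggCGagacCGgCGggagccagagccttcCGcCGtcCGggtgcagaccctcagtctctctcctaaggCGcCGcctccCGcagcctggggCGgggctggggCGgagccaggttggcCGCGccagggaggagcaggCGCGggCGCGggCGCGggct
Chl1: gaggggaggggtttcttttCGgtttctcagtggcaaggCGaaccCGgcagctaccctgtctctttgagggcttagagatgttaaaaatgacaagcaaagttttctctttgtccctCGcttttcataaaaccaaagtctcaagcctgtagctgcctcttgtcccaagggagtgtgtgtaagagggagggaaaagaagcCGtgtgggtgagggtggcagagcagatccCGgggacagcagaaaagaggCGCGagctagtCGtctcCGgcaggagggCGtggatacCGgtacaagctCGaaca
Mgat4c: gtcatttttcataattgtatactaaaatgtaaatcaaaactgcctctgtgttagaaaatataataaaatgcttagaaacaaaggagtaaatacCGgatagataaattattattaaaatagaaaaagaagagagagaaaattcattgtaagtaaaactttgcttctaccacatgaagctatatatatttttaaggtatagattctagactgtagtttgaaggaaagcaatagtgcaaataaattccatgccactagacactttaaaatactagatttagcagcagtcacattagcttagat
Cd163l1: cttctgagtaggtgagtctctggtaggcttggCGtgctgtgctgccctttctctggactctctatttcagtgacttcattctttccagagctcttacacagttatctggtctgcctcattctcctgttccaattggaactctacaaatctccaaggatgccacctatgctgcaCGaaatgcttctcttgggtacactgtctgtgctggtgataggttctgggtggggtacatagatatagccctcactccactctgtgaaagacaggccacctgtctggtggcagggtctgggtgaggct

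The Tmem47 sequence holds 29 CpG pairs and the Mgat4c sequence 1, with G and C making up 68.7% and 27.7% of bases. For Tmem47 and Unc13c the bases after the RefSeq start were not found in a GENCODE transcript, so those starts are less certain. The windows of Mab21l2, Chl1, Ano4 and Strc lay wholly inside the GENCODE gene, past its outermost start. On the minus strand, the Ano4 window ended at 89258040 and its gene at 89344762, and the Strc window ended at 121381190 and its gene at 121387168. The starts used for these genes may therefore not be the ones in use in these cells. Both strands were searched for 4 motifs, and no match overlapped another. TATAAA was found in 1 of 14 promoters, that of Mab21l2 at 192 bases before the start, and in 8.80% of all promoters. TGACAG, the core of sites bound by MEIS proteins, was found in 2 of 14, Ano4 and Strc, and in 17.4% of all. CAATAAA, a HOXD13-type site, and TGATTNAT, a PBX-HOX site, were in 0 of 14 and in 2.89% and 1.79% of all. Such matches describe these letters in these windows only.

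**Figure D3:**
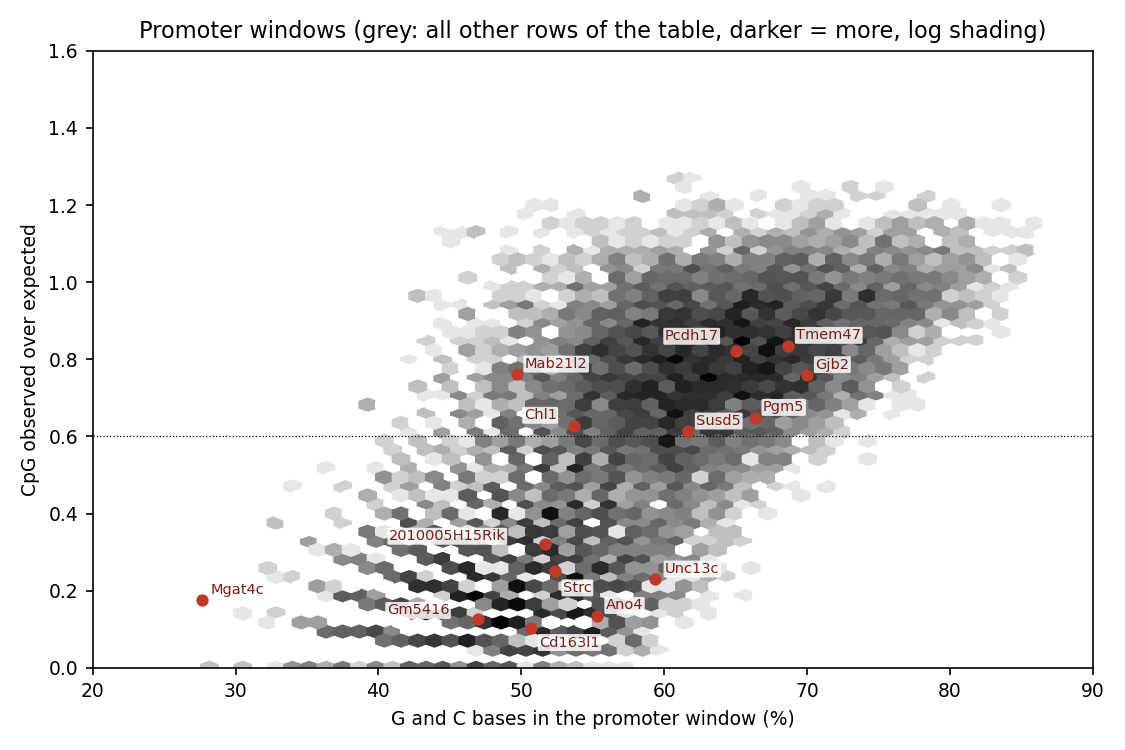
CpG observed over expected against the percentage of G and C in the 300-base promoter window, with the 14 genes as red points over all other rows of the table in grey. The dotted line marks 0.6, with 7 of the 14 genes above it and the other 7 at 0.320 or lower.

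Genes near the 18 on the chromosome were tested next. The rows left out by name were skipped here too, and the nearest remaining tested gene on each side, by the distance between gene midpoints, gave 34 different neighbours at a median gap of 188 kb, with 8 pairs over 1000 kb apart. Of these, 6 were higher in NHD13 (17.6%) and 4 lower (11.8%), beside 15.0% and 15.3% of all tested genes, and their median log2 change was -0.07. The higher neighbours with the lowest p were Mira, an RNA within Hoxa7 that overlaps 2700086A05Rik (50, 56 and 54 counts in WT and 345, 307 and 306 in NHD13, log2 change 2.52 ± 0.14 SE, adjusted p = 3.69e-05, edgeR), and Lrba. The others rose by 0.34 (Utp20 and Yars2), 0.43 (Ccdc58) and 0.73 (4930430F08Rik) on the log2 scale. Each of these 4 lost the call in several alternatives, among them that without WT replicate 2. Over the alternatives their adjusted p reached 0.229 (Utp20), 0.309 (Yars2), 0.319 (Ccdc58) and 0.115 (4930430F08Rik). Of the 31 neighbours that do not overlap a member, 4 were higher and 4 lower. The skipped rows include closer genes that rose: Gm5483 (log2 change 7.17 ± 0.59 SE, adjusted p = 0.000179, edgeR) and Stfa1 (7.0 ± 0.47, adjusted p = 6.39e-05) beside both stefin members, and Hoxa3 (3.36 ± 0.25, adjusted p = 0.000111) and Hoxa5 (3.15 ± 0.20, adjusted p = 5.53e-05) over 2700086A05Rik. With such rows allowed, a choice made after seeing the data, 8 of 34 neighbours were higher (23.5%) and 3 lower (8.82%). Without NHD13 replicate 1, 10 neighbours were higher and 7 lower, where over all genes 3012 were higher and 2966 lower.

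The lower neighbours were Olfm4, Cd86, Diras2 and Tmtc2. Olfm4, a secreted glycoprotein of neutrophil precursors that is the nearest tested gene before Pcdh17, fell from 83.8 ± 27.6 to 12.9 ± 2.73 CPM (SD, n = 3; log2 change -2.70 ± 0.25 SE, adjusted p = 0.000318, edgeR) and is 4420 kb away. Cd86, a costimulatory receptor 386 kb from Gm5416, changed by -2.08 (adjusted p = 0.00884, edgeR). Diras2, 380.2 kb from 4921525O09Rik, changed by -1.69 (adjusted p = 0.00573, edgeR). Tmtc2, 2796 kb from Mgat4c, changed by -1.28 (adjusted p = 0.0180) and lost the call without WT replicate 2 or 3, without NHD13 replicate 2 or 3 and with DESeq2 (adjusted p = 0.0948).

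**Figure D4:**
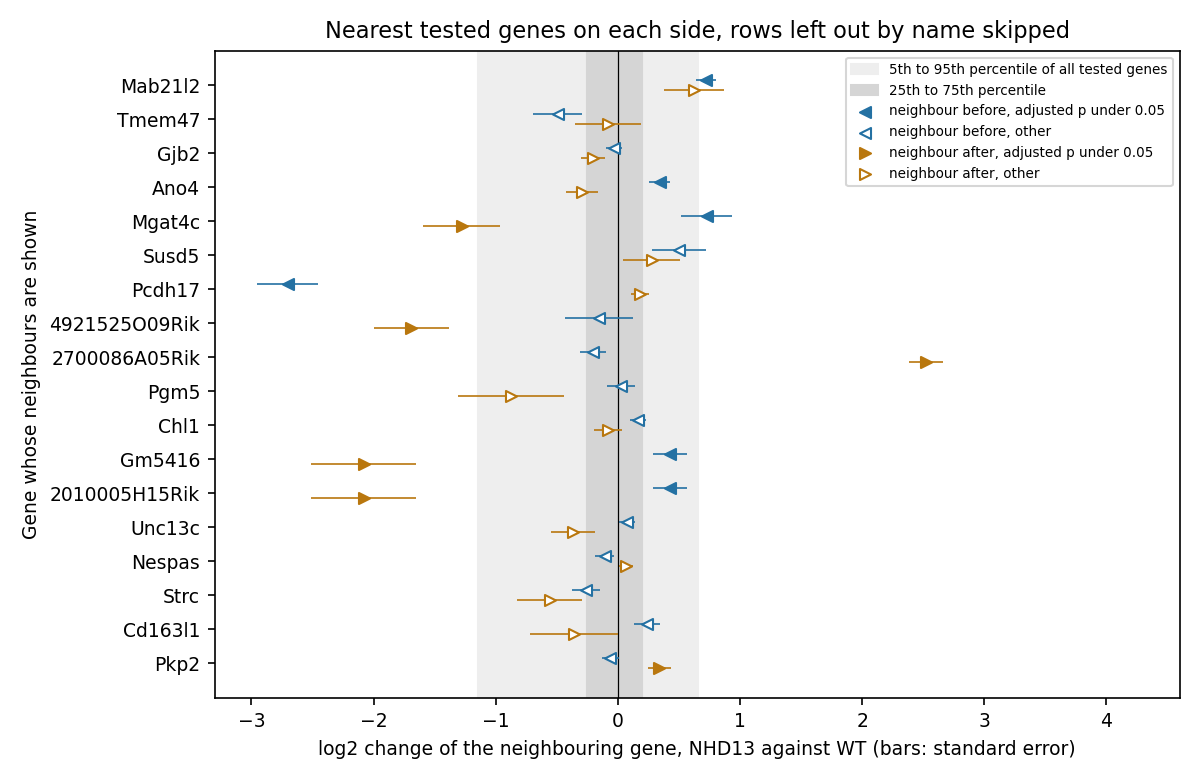
Log2 change (NHD13 minus WT) of the nearest tested gene on each side of each of the 18 genes, rows left out by name (Hox genes and stefins among them) skipped, with bars for the standard error, filled triangles for genes past the threshold and grey bands for percentiles of all tested genes. Of the genes drawn, Mira, which overlaps 2700086A05Rik, lies farthest right at 2.52 and Olfm4, on the side before Pcdh17, farthest left at -2.70.

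Genes that share a symbol stem with one of the 18 were counted next. The stem Unc joins Unc13c to 12 rows named after a worm phenotype that are not Unc13 genes and need not be related to it. Of 53 such rows, 24 passed the filter, 3 were higher (12.5%) and 6 lower (25%), with a median log2 change of -0.29. Over all tested genes these shares were 15.0% and 15.3%. Without those 12 rows, a choice made after seeing the data, 19 of 41 were tested and the same numbers, 3 and 6, were called. Without NHD13 replicate 1 the counts over the 53 were 4 and 10, where more genes were also called over all genes. Susd2, which shares its stem with Susd5, had 15, 28 and 36 counts in WT and 87, 160 and 167 in NHD13. Its log2 change was 2.32 ± 0.31 (SE, adjusted p = 0.00166, edgeR), a call that was kept in every alternative. Pcdh7, a protocadherin like Pcdh17, had 54, 46 and 49 counts in WT and 78, 139 and 170 in NHD13 (log2 change 1.30 ± 0.26 SE, adjusted p = 0.00821, edgeR). In both genes the NHD13 libraries lay above the WT libraries and NHD13 replicate 1 was lowest. Mgat4b rose by 0.25 (adjusted p = 0.0347), a call lost without any 1 of 5 libraries and with upper-quartile factors. All 6 lower genes except Mgat1 lost the call without some of the libraries. They were Ano6, Ano8, Ano10, Mgat1, Mgat4a and Pgm2, which share a stem with Ano4, Mgat4c or Pgm5 and were already expressed in WT. Ano6, the platelet scramblase, went from 88.7 ± 4.15 to 66.8 ± 10 CPM (SD, n = 3). Its call (adjusted p = 0.0200, edgeR) was lost without WT replicate 2 or 3 and without NHD13 replicate 2 or 3.

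Of the 53 rows, 27 (20 of 41 without the 12) had at most 10 counts in WT, as the 18 genes do, and none of these had more than 8 in NHD13. Of all rows with so few WT counts, 0.876% reached 40 in NHD13, and a count of 0 here or in the lists that follow is near that background. They include 8 other protocadherins beside Pcdh17, the connexin gene Gjb5, Ano1, Ano2, Ano3, Ano7 and Ano9. The synaptic gene Unc13a had 5, 8 and 12 counts in WT and 7, 4 and 4 in NHD13, and so overlapped between groups where Unc13c did not.

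Lists of genes related in function were counted in the same way. Of 25 listed neural immunoglobulin adhesion molecules, Chl1 among them, 19 had a row in the table. Of the 18 other than Chl1, 11 had at most 10 counts in WT and none of them reached 40 in NHD13, the highest having 12. The 3 that passed the filter all fell, beside 15.3% of all tested genes, and the other 15 were not tested. On the log2 scale L1cam, the namesake of the family of Chl1, fell by 1.86 (adjusted p = 0.00332, edgeR). Alcam fell by 0.80 (adjusted p = 0.00530, edgeR) and Ncam1 by 0.75 (adjusted p = 0.00307, edgeR). Of 15 relatives of Tmem47 in the table, 8 were tested, 1 rose (12.5%) and 3 fell (37.5%), beside 15.0% and 15.3% of all tested genes. Cldn13, a claudin of red cell precursors, rose by 1.07 (adjusted p = 0.0153, lost without WT replicate 1 or 2 or NHD13 replicate 2), while Emp1 fell by 3.86 (adjusted p = 0.00388) and Cldn1 by 0.98 (adjusted p = 0.0216, lost without WT replicate 2 or 3). The third that fell was Cldnd1, matched by synonym to the row named Cldn25. It fell by 0.24 (adjusted p = 0.0358) and lost the call without any 1 of 5 libraries and with DESeq2. With no low-count filter this row, Cldn13 and Cldn1 also lost the call.

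Of 85 listed developmental transcription factors that Polycomb proteins commonly hold silent, 44 had a row in the table. Of these, 39 had at most 10 counts in WT and none of them reached 40 in NHD13, the highest having 13. None of the 3 tested passed the threshold. The list holds no Hox gene, and Hox genes such as Hoxa2, Hoxb5 and Hoxc6 met the limits of the 18 and were left out by name. Of 33 listed germline genes that DNA methylation commonly silences, 23 had a row in the table. Of these, 12 had at most 10 counts in WT, and the highest NHD13 count among them was 23. Ddx4, the germ cell RNA helicase, had 10, 27 and 35 counts in WT and 59, 149 and 147 in NHD13 and rose by 2.23 (adjusted p = 0.00645), whereas Rnf17 fell by 2.28 (adjusted p = 0.000569). Among 30 genes of the Polycomb and DNA methylation machinery 2 rose (6.67%) and 4 fell (13.3%), with a median of -0.03. Ezh2 rose by 0.20 (adjusted p = 0.0414) and Bmi1 by 0.23 (adjusted p = 0.0238), each lost without any 1 of 5 libraries. With all libraries kept, Ezh2 also lost the call with upper-quartile factors, library totals, no filter or a replicate block (adjusted p = 0.0835, 0.0596, 0.0515 and 0.0541, edgeR), and Bmi1 kept it in these. Tet1, an enzyme that oxidises methylated cytosine, fell by 0.76 (adjusted p = 0.00450). Over all the lists of related genes, members left out, 4 genes rose and 11 fell. Without NHD13 replicate 1, 11 rose and 18 fell, where more genes were also called over all genes. Over all tested genes 15.0% were higher and 15.3% lower, and nothing is read from the list totals. With the share of Y-linked counts as a covariate, which differs between the groups, the calls of Lrba, Mira, Olfm4, Susd2 and Rnf17 were kept. Among the rows left out by name, Hoxa3, Hoxa5 and Hoxa7 kept theirs. Apart from rows left out by name, the calls of the other neighbours, family genes and list genes named here were lost.

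Markers of other cell types that the libraries could hold were summed beside these results. Over 11 neuronal, glial and Schwann cell markers the summed level was 4.03 to 5.28 CPM in WT and 3.60 to 8.55 CPM in NHD13. Of these, 3 were tested and none passed the threshold, with a median log2 change of 0.72. Tubb3 had 4, 10 and 3 counts in WT and 2, 16 and 30 in NHD13 (adjusted p = 0.201, edgeR), and Gfap had 24, 33 and 32 in WT and 16, 75 and 63 in NHD13 (adjusted p = 0.254, edgeR). In both, NHD13 replicate 1 was low and the groups overlapped. Sox10 was at 0 in every library, and Map2, Syt1, S100b and Ngfr were at 0 in every NHD13 library and had 1 to 3 counts each in WT.

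Endothelial markers summed to 90.1 to 106 CPM in WT and 43.9 to 60.8 CPM in NHD13. Of 4 tested, Pecam1 and Tie1 were called lower, while Plvap averaged 3.49 CPM in WT and 5.19 CPM in NHD13 and did not pass the threshold. Stromal markers summed to 65.4 to 85.7 CPM in WT and 31.0 to 43.8 CPM in NHD13. Most of that sum was Runx2, which went from 59.4 CPM in WT to 22.9 CPM, the only 1 of 4 tested that was called, while Lepr averaged 3.42 and 4.07 CPM and Sp7 was at 0 in every library. Erythroid markers summed to 1428 to 1616 CPM in WT and 1751 to 2869 CPM in NHD13, and 5 of 8 tested were called higher. All 7 multipotent progenitor markers were called lower, with sums of 652 to 758 CPM in WT and 258 to 402 CPM in NHD13. Lower and higher calls were 6 and 0 of 7 tested mast cell and basophil markers and 6 and 0 of 8 for monocytes and macrophages. For neutrophils they were 7 and 0 of 12, and for dendritic cells 3 and 1 of 6. For B-lymphoid cells they were 3 and 0 of 5, and for T and NK cells 3 and 0 of 7. For megakaryocytes and platelets they were 1 and 1 of 7. Over all tested genes 15.3% were lower and 15.0% higher. The part of such shifts in cell mixture in the levels of the 18 genes was not tested.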

How the data were processed

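Total RNA of 6 libraries of sorted marrow cells, 3 WT and 3 NHD13, was sequenced. The authors deposited unnormalised read counts for each gene. The submitters' processing notes name HTSeq 0.5.4p3, Bowtie2 2.2.1 and the build mm10. The annotation and strand setting were not given in the sources used here. Columns were matched to samples by the group letters and replicate number in their names. Members and lists were chosen with earlier results of these data known.

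Tests used edgeR 4.0.16 in R 4.3.3 on all genes: filterByExpr with a minimum count of 10 (12013 genes kept), TMM scaling, the robust quasi-likelihood F test, two-sided, with the group as its term, and Benjamini-Hochberg adjustment at 0.05. CPM are TMM-scaled. The fit was checked on simulated data. Positions come from GENCODE vM21 (GRCm38), matched by symbol for 16335 rows, by RefSeq synonym for 973 and from RefSeq alone for 136, with 79 not matched. Near copies were sought with blastn 2.17.0. Ratio intervals are exact (Clopper-Pearson, 95%).

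The members named in full were Mab21l2, Tmem47 and Chl1, the 12 most abundant, the 4 with the highest and 4 with the lowest ratio of NHD13 replicate 1 to the others, and the 3 rows nearest each limit, and every other member was named in its role group. Up to 6 neighbours, 6 family genes and 3 genes per list past the threshold with the lowest p were named, and other genes were chosen after their values were seen. Alternatives were other scaling factors, DESeq2 1.42.0, no filter, a replicate block, a Y-linked covariate, other limits and leaving out each library.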

Additional observations from a re-analysis of the deposited data

How the results depend on the processing

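The number of genes that met the limits was 18, and it was 11 with at most 5 WT counts, 37 with at most 20, 36 with at least 20 NHD13 counts, 8 with at least 80, and 16 to 21 when each library was left out. On scaled counts it was 15, without Gjb2, Pcdh17 and Pkp2. Other scaling moved the mean NHD13 level of each of the 18 genes by less than its SD. Leaving out 1 NHD13 library lowered Susd5 from 2.34 to 1.16 CPM (without replicate 3) and Ano4 from 4.36 to 2.91 CPM (without replicate 1).

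Over all genes, 1799 were higher and 1839 lower. Leaving out 1 library gave 760 to 3012 higher and 957 to 2966 lower, with the largest counts without NHD13 replicate 1 and the smallest without NHD13 replicate 2 (higher) and WT replicate 2 (lower). For neighbours (6 and 4) the ranges were 2 to 10 and 3 to 7, for family genes (3 and 6) 2 to 4 and 1 to 10, and for lists (4 and 11) 1 to 11 and 6 to 18. With the share of Y-linked counts as a covariate, calls numbered 111 and 175 for all genes, 2 and 1 for neighbours, 1 and 0 for family genes and 0 and 1 for lists. With 2 neighbours on each side, 10 rose and 10 fell, of 68. With no low-count filter 2 list genes rose. Upper-quartile factors gave 1427 higher and 2132 lower. The causes of these changes were not tested. DESeq2 gave 1744 higher and 1832 lower.

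Deviations of libraries with the same replicate number correlated at 0.249, 0.0632 and 0.175. NHD13 replicate 2 correlated better with WT replicate 3 (0.149) than with its own number, and every other library correlated best with its own. The labels name no pairs, so the main fit took none, and whether the numbers mark pairs was not tested. With a replicate block, 2007 genes were higher and 2233 lower, 7 and 6 neighbours, 3 and 10 family genes and 3 and 14 list genes. Counts under 10 per library limit what can be said of Unc13c, Cd163l1, Strc, Gm5416 and Pkp2.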
